A study of Homo sapiens with 6 samples.

Results

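The complement system is a set of plasma and membrane proteins that mark cells and particles for removal. The 9 genes described here encode components that fibroblasts can make: the C1 proteases C1R and C1S, the central component C3, the alternative-pathway proteases CFB (factor B) and CFD (factor D), the inhibitors CFI (factor I) and SERPING1 (C1 inhibitor), and the membrane inhibitors CD55 and CD59. They were found by gene name among the 57819 genes of the deposited file, and all 9 were listed. Their names were chosen by their place in the pathway and with the differences between these same libraries already known. Their fold changes are therefore a description. Whether a gene was called in the fit across all genes is given only to set it beside the share of all genes called, and supports nothing.

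In the classical pathway, C1R activates C1S inside the C1 complex, and C1S then cleaves C4 and C2 to form an enzyme that cleaves C3. In the alternative pathway, CFD cleaves CFB bound to C3b, the larger C3 fragment, and the product cleaves more C3. Inhibitors act at each step: SERPING1 inactivates C1R and C1S, CD55 speeds the decay of the C3-cleaving enzymes, CFI degrades C3b with cofactors such as CD46, and CD59 blocks assembly of the membrane attack pore. The liver makes most plasma complement, and fibroblasts and macrophages make part of it locally.

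RNA came from IMR90 ER:Ras cells, an established human lung fibroblast line with a Ras oncogene joined to an estrogen receptor part. All 6 libraries came from cells given 200 nM 4-hydroxytamoxifen (4OHT), which switches the fusion on, for 3 days. Controls received a scrambled siRNA (3 libraries), and knockdowns were depleted of sin-lncRNA, a long noncoding RNA, by RNA interference (3 libraries). The submitters call the cells senescent. The labels and the table name the knockdown reagent differently, and whether it was 1 siRNA or a mix is not given in the sources used here. Cells without 4OHT were not analysed here, so every value belongs to Ras-activated cells. The labels do not say whether replicates were separate cultures, so the spread between them may be technical.

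Reads in genes ran from 30271192 to 50913672 in controls and from 22117324 to 27882280 in knockdowns, so depth and group cannot be told apart. The target, listed as RP4-530I15.6 (RIPOR3-AS1), was at 3.70, 4.73 and 4.09 RPM in controls and 0.493, 0.640 and 0.534 in knockdowns (RPM, reads scaled as in CPM by the effective library size). It fell to 13.3% of control (log2 fold change -2.86; limma, adjusted p = 7.94e-07). All 8 fibroblast markers were tested, of which 3 were called higher and 5 lower, and their summed level was 15189 to 16371 RPM in controls and 10692 to 11119 RPM in knockdowns. Of 6 hepatocyte markers, 4 had no read in any library, and the sum of all 6 was at most 0.206 RPM. The 6 myeloid markers summed to 0.934 to 1.37 RPM in controls and 0.269 to 1.50 in knockdowns, and the 1 that could be tested was not called. Of the 6 epithelial markers 1 was called higher and 2 lower, with sums of 28.0 to 31.4 and 28.6 to 31.4 RPM. Among the 5 endothelial markers listed, VWF was called higher, with sums of 7.06 to 7.96 and 7.98 to 8.84 RPM. Of all genes tested, 17.5% were called higher and 23.5% lower. The part of these markers in the results was not tested. In bulk RNA, fewer cells of a type and less RNA per cell cannot be told apart.

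The C1 proteases and CFI were higher in the knockdown, CD59 was higher by a small margin and C3 on few reads, and SERPING1 and CD55 were not called. Of the 9 genes, 7 averaged 10 or more normalized reads over the libraries and were tested, and 5 of these were called, all higher (limma fit across all genes, Benjamini-Hochberg adjusted p under 0.05). In the same fit 41.0% of the 19048 genes tested were called, 17.5% higher and 23.5% lower. Because this contrast helped to choose the names, nothing is read from their count. CFI was among the 7 only through the knockdown libraries, where it is high. Knockdown libraries lay wholly above the controls for 5 of the 7 and for 22.6% of all genes tested, and the groups were apart in either direction for 51.1%. The median log2 fold change was 0.79 for the 7 genes, CFI included, and -0.04 for all genes tested. Like the count, the median and the separation of libraries come from genes chosen with this contrast known, and nothing is read from them. With every library thinned to 22117324 reads the count was also 5.

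**Figure D1:**
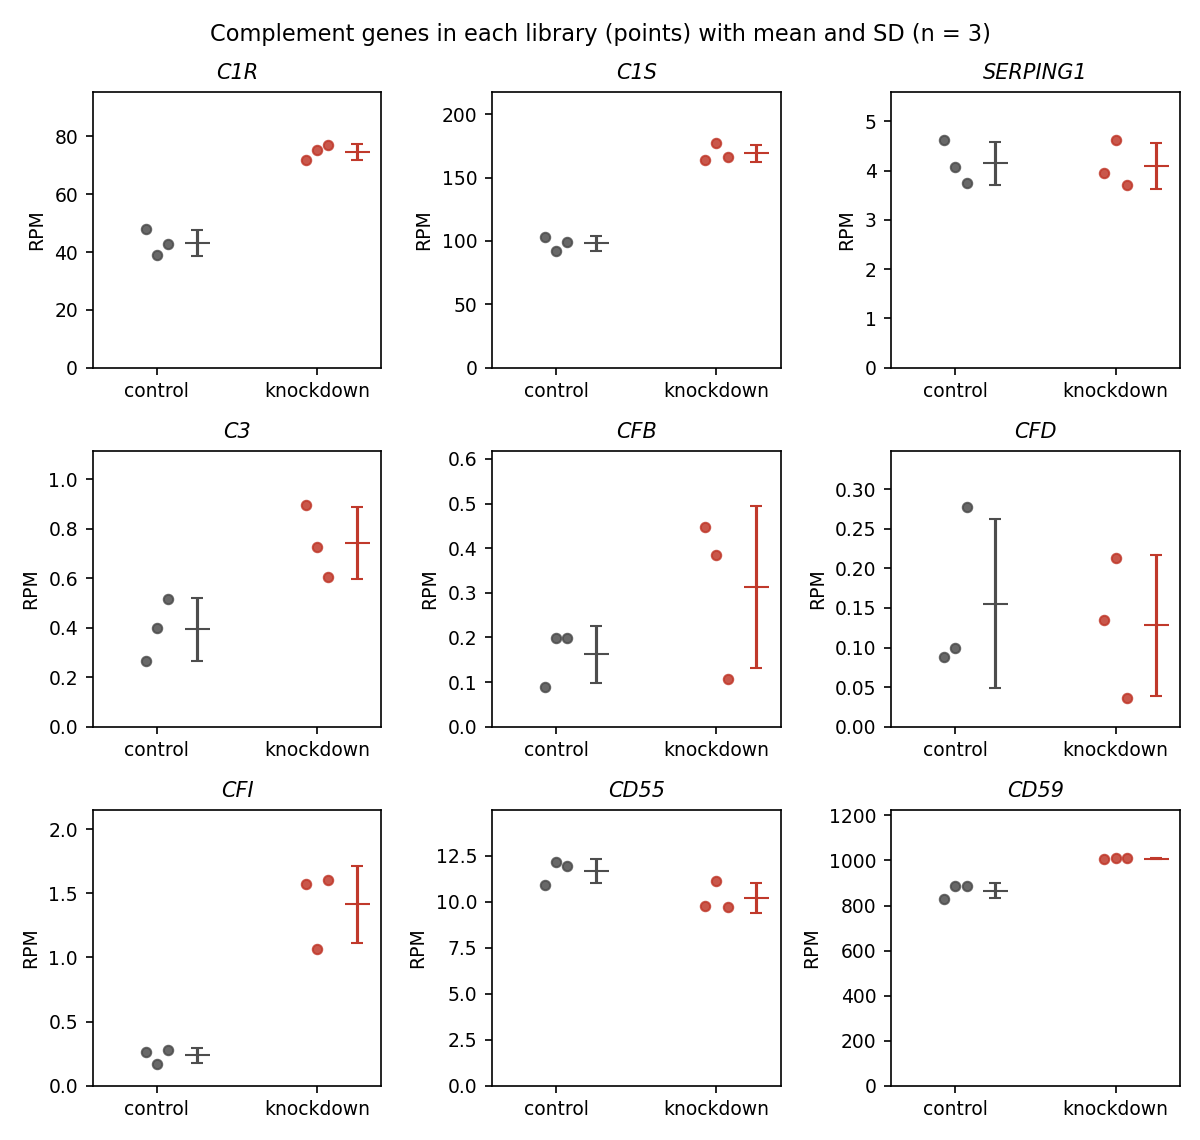
Level of each of the 9 genes in RPM (vertical axes from 0, a different scale per gene) in the 3 control and 3 knockdown libraries; points are libraries, and the cross and bar beside them are the mean and SD. C1R, C1S, C3, CFI and CD59 have all knockdown points above all control points, while the points of SERPING1, CD55, CFB and CFD overlap.

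In control cells the 9 genes spanned more than 3 orders of magnitude. Levels between genes were compared as RPM per kb of exon. CD59 was the highest, at 83.6 ± 3.2 (SD, n = 3), above 94.0% of all tested genes. C1S followed at 15.2 ± 0.9 and C1R at 7.34 ± 0.75, both above the median gene. CD55 stood at 1.97 ± 0.11 and SERPING1 at 1.15 ± 0.12 RPM per kb. Down to SERPING1, no control library of a gene overlapped those of the next gene in this order. The 4 remaining genes were near the floor: CFD at 0.127 ± 0.087, CFI at 0.0485 ± 0.0125, C3 at 0.0473 ± 0.0152 and CFB at 0.0325 ± 0.0128. CFI, C3 and CFB overlapped each other and cannot be ordered. These fibroblasts thus had abundant RNA for the C1 proteases and for CD59, and few reads for C3, CFB and CFD. The span of CFB is shared by other genes on the same strand, so its level is uncertain.

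C1R and C1S, the paired proteases of the C1 complex, stood higher side by side in the knockdown. C1R (ENSG00000159403.11, chromosome 12, 7187513 to 7245203, minus strand, hg19) was at 47.8, 39.0 and 42.8 RPM in control replicates 1, 2 and 3 and at 71.7, 75.3 and 77.2 in knockdown replicates 1, 2 and 3. The groups did not overlap, and the highest control reached less than the lowest knockdown. The log2 fold change of C1R was 0.80 (standard error, SE, 0.07), and 3.10% of tested genes had a larger rise. C1S (ENSG00000182326.10, chromosome 12, 7096351 to 7178336, plus strand) was at 103.3, 91.6 and 99.2 RPM in controls and at 164.0, 176.9 and 166.1 in knockdowns. Again every knockdown library lay above every control. C1S had a log2 fold change of 0.79 (SE 0.05), and 3.19% of tested genes had a larger one. Per kb, C1S stood at 2.07 ± 0.09 times C1R in controls and 2.06 ± 0.09 times in knockdowns (SD, n = 3), so this proportion differed by less than the spread between replicates. Both genes had their lowest control level in replicate 2.

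The windows from 250 bases before to 50 after an annotated start (RefSeq, GRCh38.p14) are shown for C1R and its neighbour and relative C1RL, both higher in the knockdown, and for CFI, the member with the largest fold change. Of the 9 genes 6 had an entry in the RefSeq set used: CFB, CFI, CFD, C1R, CD55 and CD59. Capitals mark matches, on either strand, to letters bound by transcription factors that act on complement genes: TTCNNNGAA for STAT factors (GAS) and TTGCNNAA for C/EBP factors. C1R has 2 listed starts, at chr12:7092396-7092695 and chr12:7091844-7092143, both on the minus strand. The C1RL window is chr12:7109165-7109464, minus strand, and the CFI window is chr4:109801950-109802249, minus strand.
C1R, first start: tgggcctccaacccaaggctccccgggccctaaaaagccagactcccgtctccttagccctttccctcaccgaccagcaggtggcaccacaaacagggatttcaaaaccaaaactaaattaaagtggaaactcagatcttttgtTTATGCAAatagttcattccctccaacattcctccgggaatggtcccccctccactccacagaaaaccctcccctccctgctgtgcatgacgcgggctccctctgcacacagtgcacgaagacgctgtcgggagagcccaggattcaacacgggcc
C1R, second start: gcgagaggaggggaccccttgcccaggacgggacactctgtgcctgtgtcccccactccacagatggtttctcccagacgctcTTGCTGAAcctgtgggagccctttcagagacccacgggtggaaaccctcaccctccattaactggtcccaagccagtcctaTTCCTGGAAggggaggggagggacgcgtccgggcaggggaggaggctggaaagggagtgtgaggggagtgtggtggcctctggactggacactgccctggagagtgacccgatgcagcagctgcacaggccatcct
C1RL: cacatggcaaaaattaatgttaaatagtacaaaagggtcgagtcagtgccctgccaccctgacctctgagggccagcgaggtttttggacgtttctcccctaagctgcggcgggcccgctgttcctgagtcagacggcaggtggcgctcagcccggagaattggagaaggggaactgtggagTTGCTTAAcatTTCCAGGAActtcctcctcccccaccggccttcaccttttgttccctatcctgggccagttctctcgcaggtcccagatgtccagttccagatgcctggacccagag
CFI: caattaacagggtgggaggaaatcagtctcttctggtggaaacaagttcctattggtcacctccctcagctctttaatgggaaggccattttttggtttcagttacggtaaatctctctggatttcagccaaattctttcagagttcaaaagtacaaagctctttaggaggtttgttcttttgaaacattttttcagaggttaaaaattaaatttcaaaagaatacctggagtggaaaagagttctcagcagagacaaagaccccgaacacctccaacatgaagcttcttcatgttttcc

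The first C1R window held a C/EBP match alone, while the second C1R window and the C1RL window each held a GAS and a C/EBP match. The CFI window held neither. Among the 6 genes with an entry, a GAS match was present in 3 (C1R, CD59 and CFB), against 9.38% of 27305 genes with a window, and a C/EBP match in 2 (C1R and CD59), against 12.7%. For an interferon-response core, GAAANNGAA, 1 gene matched (CFB), against 9.86%. For GGNNTTTCC, a core of the NF-kB site, 0 matched, against 7.61%. C1R and CD59 have several windows each, which gives them more chances of a match. GAS and interferon-response letters may share bases, although in CFB they did not. A match describes letters only.

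SERPING1, the serpin that inactivates both C1 proteases, was near the same level in both groups. SERPING1 (ENSG00000149131.11, chromosome 11, 57364860 to 57382326) was at 4.61, 4.06 and 3.76 RPM in controls and 3.94, 4.61 and 3.70 in knockdowns. The groups overlapped fully. Its log2 fold change was -0.02 (SE 0.13) and took either sign with the processing, from -0.11 to 0.065. Summed per kb, C1R and C1S stood at 18.8, 18.5 and 21.7 times SERPING1 in controls and at 34.3, 31.4 and 37.7 times in knockdowns. The ratio of protease RNA to inhibitor RNA in the knockdown was thus 175% of that in controls. The groups did not overlap (two-sided exact permutation p = 0.1, the smallest that 3 against 3 allows). C1R plus C1S alone stood at 173% of control in RPM, so the ratio mainly restates the rise of these proteases, which were chosen with it known.

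**Figure D2:**
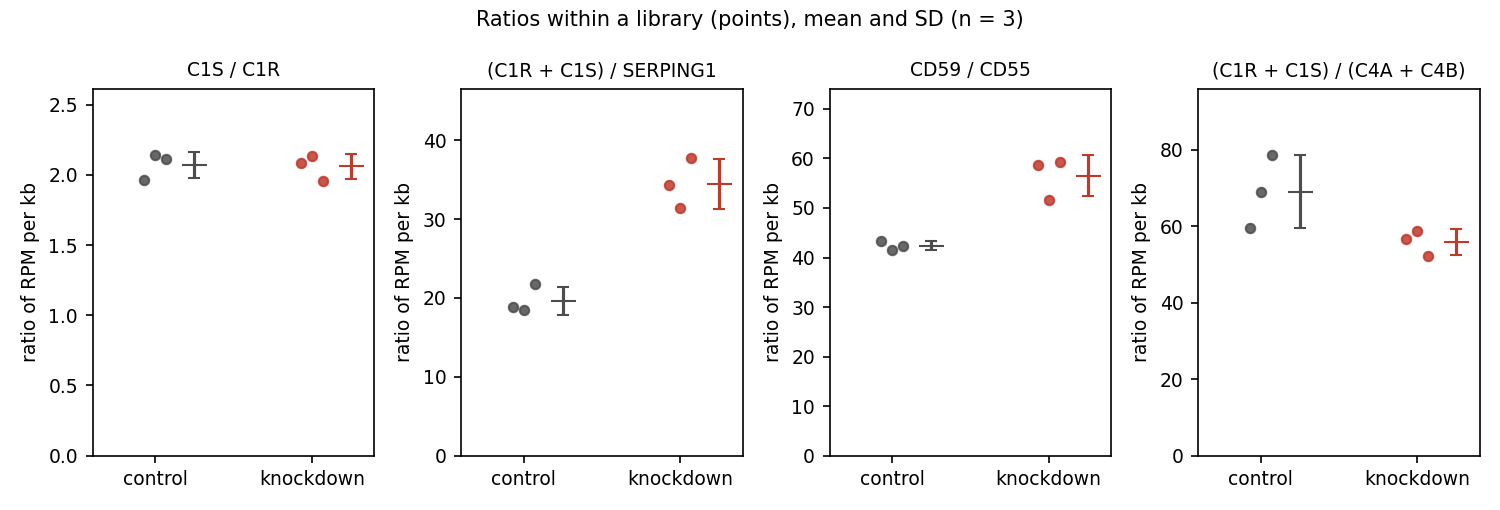
Ratios of levels in RPM per kb within each library (vertical axes from 0), for C1S over C1R, C1R plus C1S over SERPING1, CD59 over CD55, and C1R plus C1S over C4A plus C4B; points are libraries, cross and bar the mean and SD. C1S over C1R averages 2.07 and 2.06, the ratios to SERPING1 and of CD59 over CD55 are higher in every knockdown library than in any control, and the ratio to C4 is lower.

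Both higher and lower genes lay around C1S and C1R: on the C1S side 2 were called higher and 3 lower, and on the C1R side 4 higher and 1, PEX5, lower. In the table's coordinates the genes face each other with their ends 9.18 kb apart. Of the 15 other tested genes within 100 kb of the pair, 6 were called higher, 4 lower and 5 neither (limma, adjusted over all genes), beside 17.5% higher and 23.5% lower of all genes tested. These neighbours are named here after their values were seen. C1RL, a relative of C1R that overlaps it on the same strand, rose from 14.1 ± 0.5 to 20.5 ± 1.0 RPM (log2 fold change 0.54, SE 0.07; limma, adjusted p = 0.000102). LPCAT3 and EMG1, whose spans overlap that of C1S, had log2 fold changes of -0.17 (SE 0.06, called lower) and -0.14 (SE 0.07, not called), against 0.79 for C1S. The largest fall was that of PEX5, at -0.56 (SE 0.06, adjusted p in limma, 5.95e-05), and no tested neighbour reached the fold changes of C1R and C1S. C1R and C1S were chosen with their changes in these libraries known, so nothing is read from their standing above the neighbours. How reads in shared exons were assigned is not given in the sources used here, so levels of overlapping genes are uncertain.

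**Figure D3:**
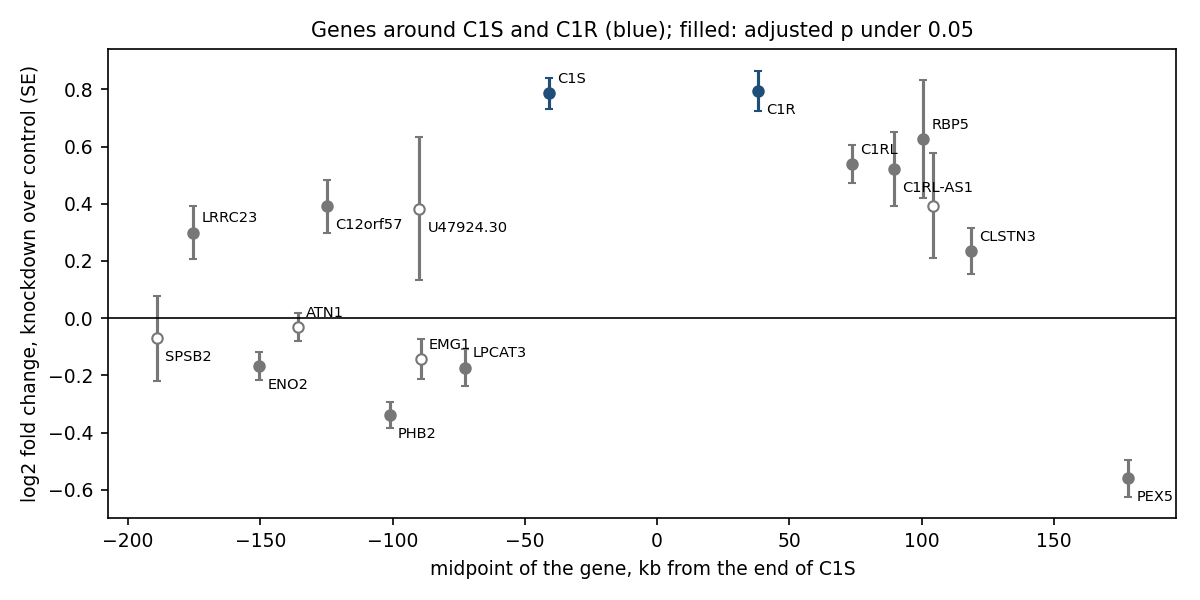
Log2 fold change (vertical axis, bars are SE) of tested genes around C1S and C1R against the distance of each gene's midpoint from the end of C1S in kb (horizontal axis); filled points were called in limma. C1S and C1R, in blue, stand highest at 0.79 and 0.80, and PEX5 stands lowest at -0.56. The blue genes were chosen with these changes known.

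The alternative-pathway genes C3, CFB and CFD and the C3b-degrading protease CFI had few reads, and of these CFI had the largest fold change. CFI (ENSG00000205403.8, chromosome 4, 110661852 to 110723335) had 9, 5 and 14 reads in controls and 35, 25 and 45 in knockdowns, or 0.264, 0.166 and 0.278 RPM against 1.57, 1.07 and 1.60. All knockdown libraries lay far above the controls although they were shallower. Its log2 fold change was 2.53 (SE 0.29). CFI averaged 7.41 normalized reads in controls and 44.3 in knockdowns, so it passed the filter of 10 only through the group where it is high. Summed over libraries, the ratio was 5.81 with a 95% exact counting interval of 3.80 to 9.16. This interval, like those for C3, CFB and CFD below, covers counting error only and leaves out the spread between libraries. Because the 0.5-read offset of the deposited values weighs on few reads, the fold change depends on it: with a pseudocount of 5 reads it was 2.10.

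C3, the component on which all pathways meet, had 9, 12 and 26 reads in controls and 20, 17 and 17 in knockdowns. Levels of C3 (ENSG00000125730.12, chromosome 19, 6677715 to 6730573) were 0.264, 0.400 and 0.517 RPM and 0.896, 0.726 and 0.606, apart by a narrow margin between the highest control and the lowest knockdown. The fitted log2 fold change of C3 was 0.94 (SE 0.30), and the summed ratio was 1.78, with a counting interval of 1.18 to 2.69. This call rested on single libraries: it was lost when control replicate 1 (log2 fold change then 0.69), knockdown replicate 1 (0.79) or knockdown replicate 2 (0.94) was left out, and with the replicate number as a block (0.94). C3 overlaps GPR108 on the same strand.

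CFB and CFD, the proteases of the alternative pathway, did not pass the filter on low values. CFB (ENSG00000243649.4, chromosome 6, 31895475 to 31919861) had 3, 6 and 10 reads in controls and 10, 9 and 3 in knockdowns. Knockdown replicate 3 lay among the controls. The summed ratio for CFB was 1.79, with a counting interval of 0.927 to 3.51. The span of CFB is shared on the same strand by C2 and by a second gene model, ENSG00000244255.1, so reads of CFB may be split or left out, and its level is uncertain. CFD (ENSG00000197766.3, chromosome 19, 859453 to 863453) had 3, 3 and 14 reads in controls and 3, 5 and 1 in knockdowns, a summed ratio of 0.698 (0.280 to 1.60). A difference in CFB or CFD was not detectable at this depth. A count of 0 would allow up to 3 reads, or 0.0596 to 0.134 RPM by library, and these intervals and floors cover counting error only.

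Of the membrane inhibitors, CD59 was slightly higher and CD55 was not called. CD59 (ENSG00000085063.10, chromosome 11, 33719807 to 33757991), the anchored protein that blocks the attack pore, was at 828, 886 and 885 RPM in controls and 1005, 1009.8 and 1009.7 in knockdowns. The knockdown libraries were close to one another and above every control. The log2 fold change of CD59 was 0.22 (SE 0.04), or 116% of control, and after a trend with GC content and transcript length was removed it was 0.11. CD55 (ENSG00000196352.9, chromosome 1, 207494853 to 207534311), the decay-accelerating factor, was at 10.9, 12.2 and 11.9 RPM in controls and 9.77, 11.1 and 9.73 in knockdowns. Knockdown replicate 2 lay within the controls. Its log2 fold change was -0.19 (SE 0.08) and was not called, but it was called lower without knockdown replicate 2 (-0.26) and after the GC and length correction (-0.25). Per kb, CD59 stood at 42.4 ± 0.9 times CD55 in controls and 56.5 ± 4.2 times in knockdowns (SD, n = 3), with no overlap.

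CD46, another membrane inhibitor and a cofactor for CFI, was tested as one of the other complement genes. Its level rose from 172 ± 5 to 224 ± 5 RPM (SD, n = 3 here and for each gene that follows). On the log2 scale the change was 0.38 (SE 0.04; adjusted p in limma, 4.24e-05), and 0.22 after the GC and length correction. CD46 lies 391 kb from CD55 on chromosome 1 and on the same strand. CFI and CD46 each lay higher in every knockdown library than in every control, while the groups overlapped for CD55; the difference between these genes was not tested.

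Beyond the 9, 51 other complement genes were listed, 15 of them without a read in any library. Of the 21 that passed the filter, 11 were called higher and 3 lower, beside 17.5% and 23.5% of all genes tested; their median log2 fold change was 0.38. The 11 include CD93, which passed the filter only through the knockdown libraries. Missing or nearly so were the C1q chains that complete the C1 complex: C1QA, C1QB and C1QC had 0 reads in all 6 libraries, which allows up to 0.134 RPM in the shallowest. C2 had 3 to 8 reads per library, and its span is shared by CFB on the same strand, so its level is uncertain. Of the terminal components, C5 alone was tested, at 2.06 ± 0.03 RPM in controls and 1.41 ± 0.57 in knockdowns, where replicate 2 was lowest at 0.768 (log2 fold change -0.62, SE 0.28; adjusted p in limma, 0.095).

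For the start of the classical and lectin pathways, 7 listed genes were tested. Of these, 5 were called higher and the other 2 were not called, beside 17.5% higher of all genes tested. C1RL and COLEC12 are among the 5, listed as relatives of C1R and of the collectins, and their part in these pathways was not tested. The 5 include C4A and C4B, whose calls are not separate. C4A and C4B, the substrate of C1S, are near-identical neighbours 12.1 kb apart on chromosome 6, and reads cannot be assigned between them with certainty. Their summed level was 2.91, 2.16 and 2.07 RPM in controls and 4.75, 4.91 and 5.34 in knockdowns, 210% of control. The groups did not overlap (two-sided exact permutation p = 0.1, the smallest that 3 against 3 allows). Taken singly, C4A changed by 0.96 on the log2 scale (SE 0.17; adjusted p in limma, 0.00113) and C4B by 1.22 (SE 0.18; adjusted p in limma, 0.000335). The ratio of C1R plus C1S to C4A plus C4B per kb was 69.1 ± 9.5 in controls and 55.9 ± 3.4 in knockdowns. The collectins COLEC12 and COLEC10, which bind sugars, rose with log2 fold changes of 0.52 (SE 0.08; adjusted p in limma, 0.000609) and 0.34 (SE 0.06; adjusted p in limma, 0.00137). MASP1 and MASP2, the lectin-pathway counterparts of C1R and C1S, were not called, at 0.18 (SE 0.14) and 0.29 (SE 0.22).

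Among the other regulators, CD46 included, 2 of 5 tested were called higher and 1 lower, beside 17.5% and 23.5% of all genes tested. CLU (clusterin), a secreted inhibitor of the attack pore and a chaperone, rose from 280 ± 22 to 411 ± 15 RPM (log2 fold change 0.55, SE 0.06; adjusted p in limma, 2.59e-05). Thrombomodulin, encoded by THBD, which also dampens complement on endothelium, fell from 11.7 ± 0.7 to 8.42 ± 0.77 RPM (log2 fold change -0.47, SE 0.09; adjusted p in limma, 0.00175).

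Of 5 receptors tested 2 were called higher and 2 lower, beside 17.5% and 23.5% of all genes tested. Among these, CD93 passed the filter only through the knockdown libraries, and the call of ITGAX was lost in 4 alternatives. C3AR1, the receptor for C3a, rose from 1.69 ± 0.19 to 2.90 ± 0.44 RPM (log2 fold change 0.77, SE 0.16; adjusted p in limma, 0.00311). CD93, a lectin-like receptor once linked to C1q, had 7, 9 and 11 reads in controls and 14, 14 and 23 in knockdowns, a log2 fold change of 1.47 (SE 0.30). It averaged 7.57 normalized reads in controls and 21.4 in knockdowns, so nothing is read from its test, although its call stays in the counts given here. ITGAX, a chain of complement receptor CR4, fell from 0.788 ± 0.069 to 0.427 ± 0.098 RPM (log2 fold change -0.86, SE 0.26; adjusted p in limma, 0.0213). It lost its call on leaving out control replicate 2 (-0.79) or 3 (-0.91) or knockdown replicate 3 (-0.67), and with a pseudocount of 5 reads (-0.56); its partner ITGB2 had 0 to 5 reads per library. C1QBP, a largely mitochondrial protein that binds C1q, fell from 106 ± 4 to 87.5 ± 4.9 RPM (log2 fold change -0.28, SE 0.05; adjusted p in limma, 0.00182).

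**Figure D4:**
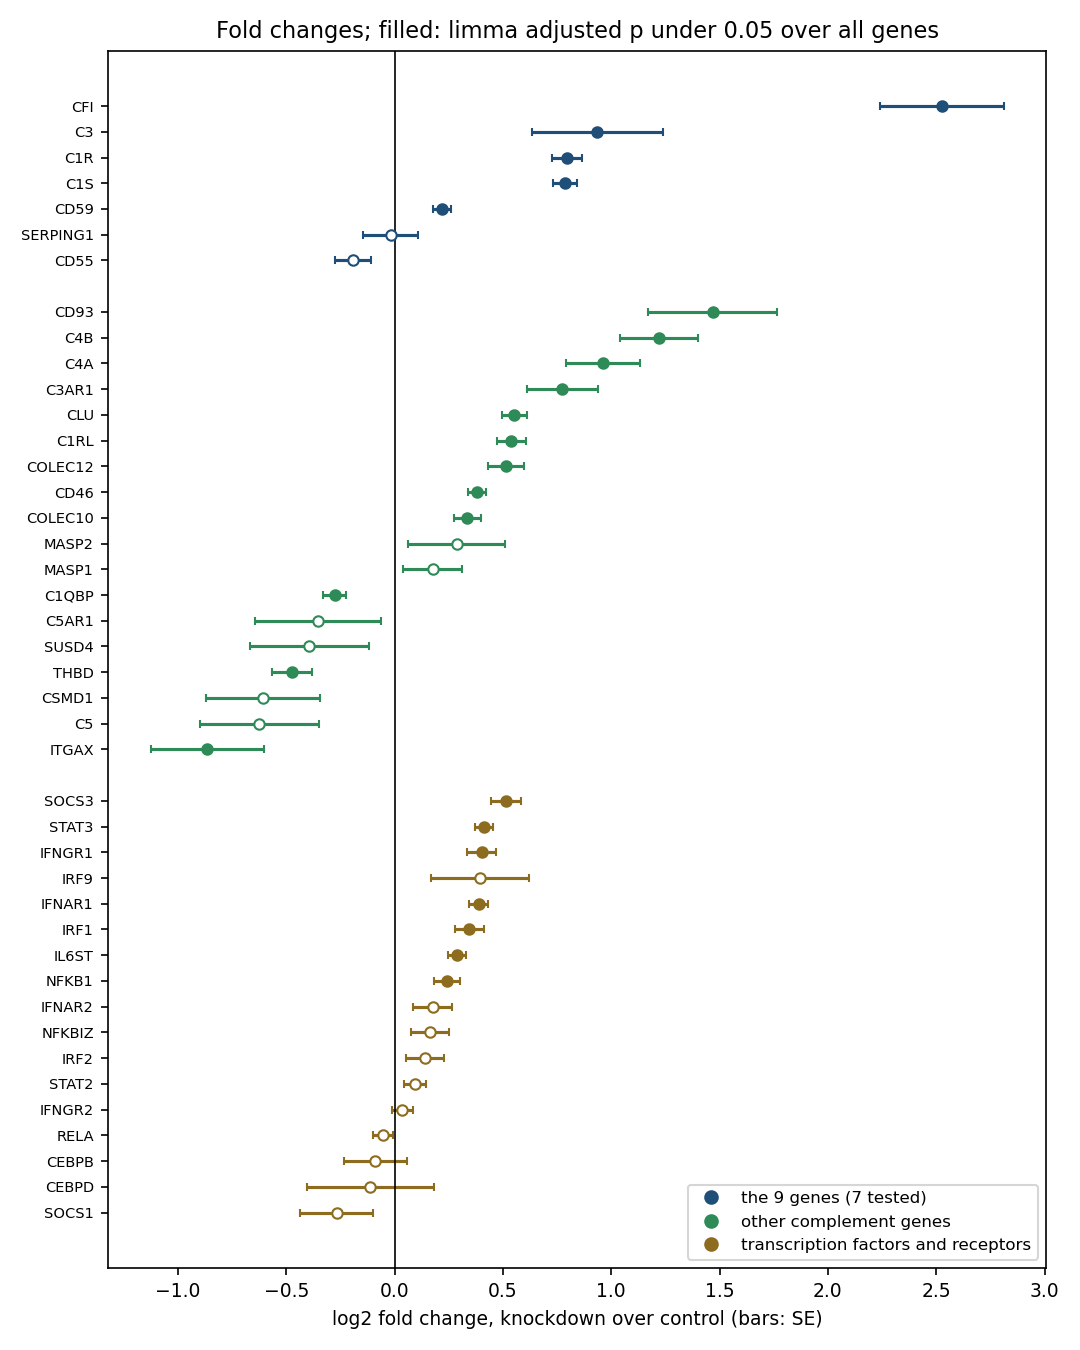
Log2 fold change of knockdown over control (horizontal axis, bars are SE) for the 7 tested of the 9 genes, other complement genes, and transcription factors and receptors; filled points had an adjusted p under 0.05 in limma over all genes tested. CFI stands farthest to the right at 2.53, and ITGAX farthest to the left at -0.86.

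Cytokines of the interferon and interleukin-6 families are known inducers of complement genes, so the transcription factors and receptors that carry these signals were examined too. Of 19 listed genes 18 were tested, and 8 were called higher and the other 10 were not called. This is 44.4% called, beside 41.0% of all genes tested, of which 17.5% were higher and 23.5% lower. The median log2 fold change of the 18 was 0.17. SOCS3, a feedback gene of STAT3 signalling, rose from 22.9 ± 1.5 to 32.7 ± 2.1 RPM (log2 fold change 0.51, SE 0.07; adjusted p in limma, 0.00018). STAT3 itself rose from 145 ± 2 to 193 ± 3 RPM (log2 fold change 0.41, SE 0.04; adjusted p in limma, 1.66e-05). IL6ST, the shared receptor chain of the interleukin-6 family, changed by 0.29 on the log2 scale (SE 0.04; adjusted p in limma, 0.000267), and by 0.11 after the GC and length correction. IFNGR1 (0.40), IFNAR1 (0.39), IRF1 (0.35) and NFKB1 (0.24) were also called higher in limma on the log2 scale. CEBPB (-0.09, SE 0.14) and CEBPD (-0.11, SE 0.29), whose control levels varied widely, were not called, nor were STAT2 (0.09, SE 0.05) and RELA (-0.05, SE 0.04). Also not called were SOCS1 (-0.27, SE 0.17), IFNGR2 (0.04, SE 0.05) and IFNAR2 (0.18, SE 0.09). The same held for IRF2 (0.14, SE 0.09), IRF9 (0.39, SE 0.22) and NFKBIZ (0.16, SE 0.09).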

How the data were processed

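PolyA RNA of 6 libraries, 3 per group, had been read as single ends per the labels' protocols. The deposited table holds log2 CPM, worked out from the values: undoing an offset of 0.5 reads and an effective library size gave whole reads (within 0.001) for 100% of values. Per the submitters' processing notes the build was hg19, and Bowtie2 and featureCounts were named; strand setting and annotation release are not given in the sources used here. limma 3.58.1 (R 4.3.3) was run across all genes on the deposited log2 values with an intensity trend and the group as sole term, two-sided, on 19048 genes with a mean of at least 10 normalized reads. P-values were Benjamini-Hochberg adjusted over those genes and called at 0.05. The fit code was checked on simulated counts with known changes, with the same spread setting for every gene and few changed genes. Because those settings differ from these data, the check does not bear on the calls made here. RPM are recovered reads scaled as in CPM by the effective size, and RPM per kb use union exon lengths of GENCODE 29, matched by gene ID. Fold changes carry the 0.5-read offset, which can make large changes of genes with few reads smaller. It also lifts such genes in the knockdown, where libraries were shallower.

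The 9 genes and all lists were chosen with earlier results of these data known. Named were the 9, called genes of the wider complement and regulator lists, and the target; some items are not reported here. Alternatives covered scaling, pseudocounts, filters, the variance model, voom, thinning to the smallest library total, thresholds, a GC and length correction, a replicate block and leaving out each library.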

Additional observations from a re-analysis of the deposited data

How the results depend on the processing

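As a description, C1R, C1S, CFI and CD59 stayed higher and called in every alternative fit that tested them. Counted here are fits with adjusted p under 0.05 and no minimum size. Of 29 single genes tested, 23 kept their direction, higher or lower, and their call in all such fits. The 23 include CFI and CD93, which passed the filter only through the knockdown libraries, and every fit reused the same libraries. A minimum size of 1 for the change on the log2 scale, in either direction, left 561 genes in all, 1 of the 9 and 2 of the wider list, by construction. An adjusted p under 0.01 left 5195 genes in all. Requiring a mean of 50 reads left 3 of the 9 called, because C3 and CFI were no longer tested. With a library left out, 4 to 5 of the 9 and 12 to 15 of the wider list were called, and 5803 to 7330 genes in all (limma). SERPING1, not called in any fit, had a log2 fold change of 0.000931 with library totals, 0.035 with quantile normalization, 0.0032 with a pseudocount of 5, 0.021 with thinned libraries and 0.065 after the GC and length correction, and with single libraries left out it took values of -0.11 to 0.061. With genes of any level kept, the median over all of them was 0.60 on the log2 scale, because genes without reads sit higher in shallower libraries, and 10220 genes were called.

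Replicate numbers are shared by the groups, and libraries of one number deviated from their group means with correlations of -0.15, -0.18 and 0.065. With 3 libraries per group, these values cannot decide whether equal numbers were paired. Adding the replicate block to the model, 6454 genes, 4 of the 9 and 14 of the wider list were called. Depth limits CFB, CFD, C3 and CFI, which rest on 1 to 45 reads per library.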
